A study of Caenorhabditis elegans with 2 samples.

Results

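On chromosome X, 589 peaks of the NHR-179-eGFP chromatin immunoprecipitation lay with their summit no more than 500 bp from the start of a protein-coding transcript and more than 200 bp from any tRNA, snRNA, snoRNA or rRNA gene. They are called X promoter peaks here. They were chosen by position alone from the list the authors made from both replicates together, which held 9606 peaks, 9583 of them nuclear and 2640 on X. NHR-179 is a nuclear hormone receptor of the nematode Caenorhabditis elegans. Sequencing followed immunoprecipitation with an antibody against GFP from sonicated chromatin of whole young adult hermaphrodites, 64 hours after synchronization as starved L1 larvae. All animals were of strain OP465, genotype unc-119(tm4063) III; wgIs465, a transgenic line that carries a stably expressed NHR-179 transgene tagged C-terminally with GFP-FLAG. The 2 biological replicates, numbered 2 and 3, formed 1 group, and no untagged strain or input library was analysed here. With 1 group no test between conditions was possible, so peak sets are described side by side. Each share has a 95% interval by the exact Clopper-Pearson method, which covers counting error over peaks only. Sequencing depth is unknown, since no read counts were given, and the labels number the replicates as biological without saying how the cultures were kept apart. Because the animals were assayed whole, binding in few cells and weak binding in many cannot be told apart.

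Nuclear hormone receptors are transcription factors that bind short core sequences in DNA, often close to promoters, and the family is greatly expanded in nematodes. The X chromosome of hermaphrodites carries a second layer of control, the dosage compensation complex, a condensin-like assembly that lowers transcription from both X chromosomes. It is loaded at recruitment elements that hold a motif with the core GCGCAGGG and spreads from there to active promoters. Separately, tRNA genes and other genes of RNA polymerase III hold an internal promoter, whose B box has the form GGTTCNANNCC.

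Sequences are shown for the highest X promoter peaks without GCGCAGGG whose windows overlap no exon of a protein-coding gene. All were read from the WBcel235 assembly, which is ce11, on the plus strand, as the summit base with 50 bases on either side. The first pair, of the highest and the fourth highest peak, shared a stretch of 33 bases, written in capitals. They are chrX:6207825-6207925, by T13C5.6, and chrX:3348047-3348147, by ZK816.3.
T13C5.6: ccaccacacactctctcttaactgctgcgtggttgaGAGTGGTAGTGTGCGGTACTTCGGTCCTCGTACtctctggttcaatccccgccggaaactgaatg
ZK816.3: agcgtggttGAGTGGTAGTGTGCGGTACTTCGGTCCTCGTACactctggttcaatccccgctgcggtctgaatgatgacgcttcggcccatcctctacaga
The next pair, ranking 7 and 10 among X promoter peaks, differed in base composition, at 24.8% and 60.4% GC. Runs of at least 5 G or C are in capitals. They are chrX:16677300-16677400, by F22H10.3, and chrX:10568751-10568851, by bet-2.
F22H10.3: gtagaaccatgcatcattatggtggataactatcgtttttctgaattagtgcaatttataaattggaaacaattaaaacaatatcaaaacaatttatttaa
bet-2: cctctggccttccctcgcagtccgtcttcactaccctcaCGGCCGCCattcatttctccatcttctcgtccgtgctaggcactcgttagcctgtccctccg
For contrast, the highest pair of X peaks outside promoters that held the recruitment core GCGCAGGG is given with that core, or its reverse complement, in capitals. They are chrX:6296523-6296623, whose nearest start is that of cest-16, and chrX:14525886-14525986, whose nearest start is that of nspc-17.
cest-16: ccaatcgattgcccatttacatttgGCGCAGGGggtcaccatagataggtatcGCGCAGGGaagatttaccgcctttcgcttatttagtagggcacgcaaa
nspc-17: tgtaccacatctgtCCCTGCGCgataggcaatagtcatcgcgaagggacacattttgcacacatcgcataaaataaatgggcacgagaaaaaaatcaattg

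Few X promoter peaks were strong. The authors' optimal list was chosen by irreproducible discovery rate, and a peak could be in it without a summit in both replicate lists. It held 7 of the 589, or 1.19% (0.479 to 2.43%). It held 16 of 2194 autosomal promoter peaks, 0.729% (0.417 to 1.18%), and 25 of 1840 X peaks outside promoters, 1.36% (0.881 to 2.00%), all of these also away from small RNA genes. Autosomal peaks outside promoters and away from small RNA genes had 30 of 4401, 0.682% (0.460 to 0.972%). Over all nuclear peaks the share was 2.43%, which the share among X promoter peaks did not exceed. The nuclear peaks, however, include those near small RNA genes, of which 155 of 559 were optimal, 27.7%. A deposited q-value under 0.05 was given to 18 of the 589, 3.06% (1.82 to 4.79%), against 4.49% of all nuclear peaks. It was given to 40.4% of peaks near small RNA genes. Away from those genes it was given to 2.37% of autosomal promoter peaks and 2.93% of X peaks outside promoters. For autosomal peaks outside promoters the share was 1.82%. The pooled list holds background regions as well as peaks, and the other X promoter peaks carried a q-value of 0.05 or more.

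The authors' signal, a value per peak whose scaling is not stated, had a median of 36.3 over the X promoter peaks (95% interval of the median 35.6 to 37.2, range 30.1 to 136). The medians were 36.2 for autosomal promoter peaks and 36.0 for X peaks outside promoters. Peaks of any chromosome within 200 bp of a small RNA gene had a median of 55.8. In the lists of the single replicates, which have their own scale, the medians over X promoter peaks were 20.3 in replicate 2 and 19.4 in replicate 3, against 19.9 and 19.5 over autosomal promoter peaks. The typical X promoter peak thus differed from a typical autosomal promoter peak by under 1 unit of signal in each list.

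The highest X promoter peak stood 188 bp upstream of T13C5.6. It had a signal of 136 in the pooled list, 73.7 in replicate 2 and 64.0 in replicate 3, and it ranked 54 of all pooled peaks. Its summit lay inside C14F11.14, an annotated non-coding RNA gene of 147 bp on X from 6207835 to 6207981. The fourth highest, 294 bp upstream of ZK816.3, had signals of 84.0 pooled, 40.6 in replicate 2 and 46.7 in replicate 3. It lay in the overlapping non-coding RNA genes ZK816.8, of 107 bp, and ZK816.9, of 57 bp. Both windows held the 33 bases shown above in capitals, followed by a copy of the B box form GGTTCNANNCC. The 33 bases occurred at 3 places in the genome, all on X. The third place, in the non-coding RNA genes T22B2.9 and T22B2.12, had no pooled summit within 200 bp and a summit in the list of replicate 3 only. So 2 of the 7 strongest X promoter peaks lay in short RNA genes that the annotation does not class as tRNA, snRNA, snoRNA or rRNA genes, and the name "away from small RNA genes" holds only for those 4 classes.

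The other 5 peaks of the optimal list lay at protein-coding genes. The peak of hsp-3, which encodes an Hsp70 chaperone of the endoplasmic reticulum, stood 16 bp downstream of the start in an untranslated exon, with signals of 104 pooled, 57.5 in replicate 2 and 46.1 in replicate 3. The peak of vit-2, which encodes a yolk protein made in the adult intestine, lay 143 bp downstream of the start in a coding exon, with 96.7 pooled, 44.6 in replicate 2 and 50.4 in replicate 3. Both were high in both replicates, ranking 90 and 183 at hsp-3 and 223 and 148 at vit-2 in the lists of replicates 2 and 3. The peak of fipr-21, of the fungus-induced protein related family, lay 218 bp downstream in a coding exon, with 83.0 pooled, 37.9 in replicate 2 and 45.9 in replicate 3. The intergenic peak by F22H10.3, 357 bp downstream of the start, had 75.1 pooled, 39.2 in replicate 2 and 37.2 in replicate 3. It differed from the others in base composition, with 24.8% GC. The peak of R04E5.9, 36 bp downstream of the start in an untranslated exon, had 81.4 pooled and 62.1 in replicate 2, but no summit within 100 bp in replicate 3. It was the optimal X promoter peak that only 1 replicate list held.

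**Figure D1:**
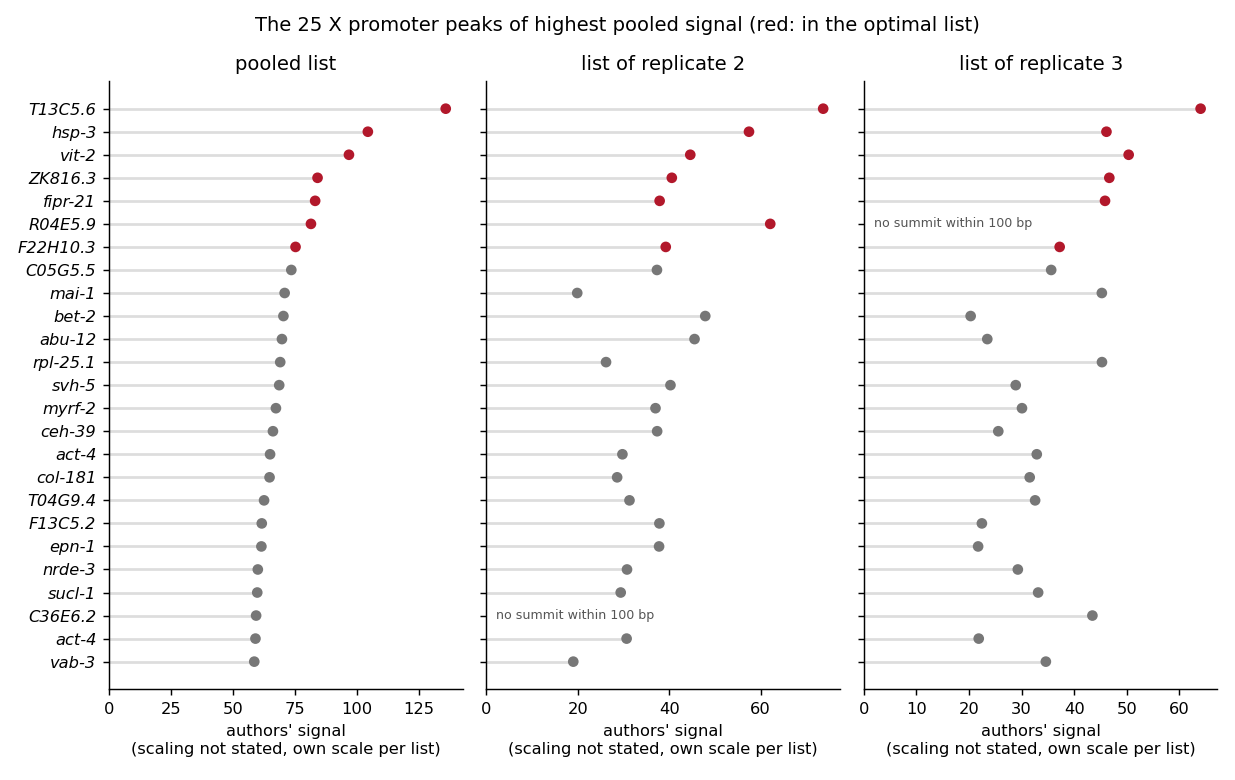
Authors' signal (horizontal axes, each list on its own scale) of the 25 X promoter peaks of highest pooled signal, one row per peak named by the nearest start, in the pooled list, replicate 2 and replicate 3. Red points are the 7 peaks of the optimal list; R04E5.9 had no summit within 100 bp in replicate 3 and C36E6.2 none in replicate 2, and the order of the peaks differs between replicates.

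Below these stood peaks of genes with known roles in several tissues. The peaks of act-4 (actin), rpl-25.1 (a protein of the large ribosomal subunit), mai-1 (an inhibitor of the mitochondrial ATPase), col-181 (a cuticle collagen), epn-1 (epsin, of endocytosis) and nrde-3 (a nuclear Argonaute protein of RNA interference) were among the 25 highest. So were those of bet-2 (a bromodomain protein), vab-3 (the Pax6 homeobox factor), myrf-2 (a myelin regulatory factor homolog) and ceh-39 (a homeobox factor encoded on X that helps the embryo count X chromosomes). C05G5.5, abu-12, svh-5, T04G9.4, F13C5.2, sucl-1 and C36E6.2 made up the rest, with act-4 counted at 2 peaks. Pooled signals of the 18 peaks outside the optimal list ran from 58.5 at vab-3 to 73.4 at C05G5.5. Replicates disagreed at several of them. The mai-1 peak had 19.9 in replicate 2 and 45.3 in replicate 3, the bet-2 peak 47.9 in replicate 2 and 20.3 in replicate 3, and the vab-3 peak 19.0 in replicate 2 and 34.6 in replicate 3. The act-4 peak 38 bp upstream of a start, by contrast, had 29.8 in replicate 2 and 32.9 in replicate 3. The other act-4 peak of this set, 303 bp downstream of a start in a coding exon, held words of 31 bases that occur elsewhere in the genome over 50.7% of its window, so reads of a near-identical copy could contribute to it.

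Recurrence was that of nuclear peaks in general. Of the 589 X promoter peaks, 153 had a summit within 100 bp in both replicate lists, 25.98% (22.5 to 29.7%), against 23.3% of autosomal promoter peaks, 22.9% of X peaks outside promoters and 24.5% of all nuclear peaks. A further 191 had a summit in replicate 2 only and 173 in replicate 3 only, while 72 had one in neither list. Recurrence followed the pooled signal, which is made from the same reads. With the peaks put into 4 bins of equal size by signal, 63.9% (55.6 to 71.7%) of the highest bin recurred in both, and 4.73% (1.92 to 9.502%) of the lowest. The matching shares of autosomal promoter peaks were 56.2% (51.9 to 60.4%) and 2.19% (1.13 to 3.79%). Among the 153, the ranks of the signals in the 2 replicates were weakly related, with a Spearman rho of 0.209, against 0.231 over 511 autosomal promoter peaks and 0.505 over 318 peaks near small RNA genes. These coefficients are across peaks that share 2 libraries and are given as descriptions.

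**Figure D2:**
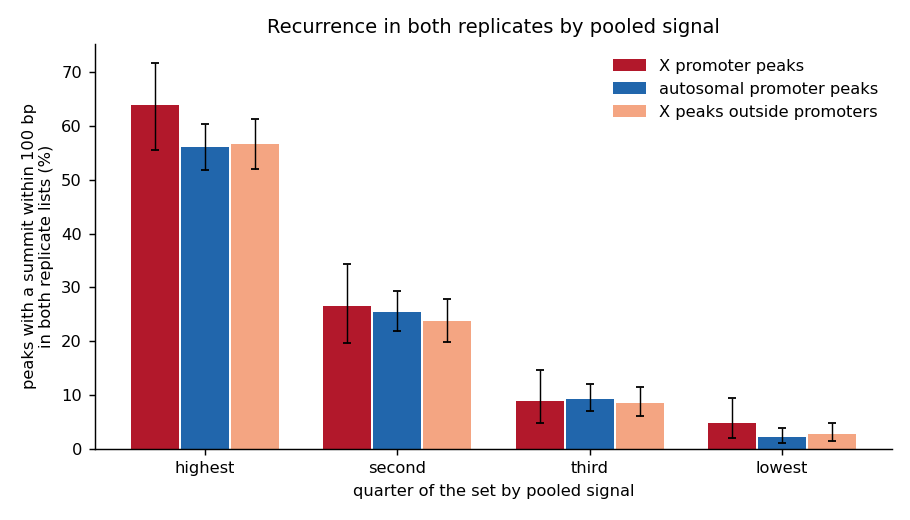
Share of peaks (vertical axis, percent) with a summit within 100 bp in both replicate lists, in 4 bins of equal size by pooled signal from highest to lowest, for X promoter peaks, autosomal promoter peaks and X peaks outside promoters, with exact 95% intervals. The X promoter peaks went through 63.9%, 26.5%, 8.84% and 4.73% over the bins, and their intervals overlapped those of the other sets in each bin.

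Summits spread over the whole kilobase around the starts. Of the 589, 274 lay upstream, 46.5% (42.4 to 50.6%), against 44.1% (41.98 to 46.2%) of autosomal promoter peaks. The median position was 19 bp downstream of the start, and 37.5 bp downstream on autosomes. Each bin of 100 bp held between 39 and 75 X promoter peaks, most from 100 bp upstream to 200 bp downstream and fewest from 500 to 400 bp upstream. The 7 optimal peaks stood from 294 bp upstream to 357 bp downstream. Sequence that meets the position rule made up 18.7% of X and held 22.3% of the X peaks, while on the autosomes it made up 24.0% of the sequence and held 31.6% of the peaks. Per megabase, promoter sequence on X held 178 peaks and promoter sequence on autosomes 111. The rest of X away from small RNA genes held 129 per megabase and the rest of the autosomes 70.6. X thus carried more listed peaks per megabase than the autosomes both at promoters and outside them, in both replicate lists as well. These lists hold background regions as well as peaks. Of the optimal peaks, 7 lay in 3.31 Mb of promoter sequence on X and 16 in 19.8 Mb on autosomes. Outside promoters, 25 lay in 14.3 Mb on X and 30 in 62.3 Mb on autosomes. In replicate 2 the promoter densities were 230.5 on X and 148 on autosomes, and in replicate 3 they were 233 on X and 152 on autosomes.

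**Figure D3:**
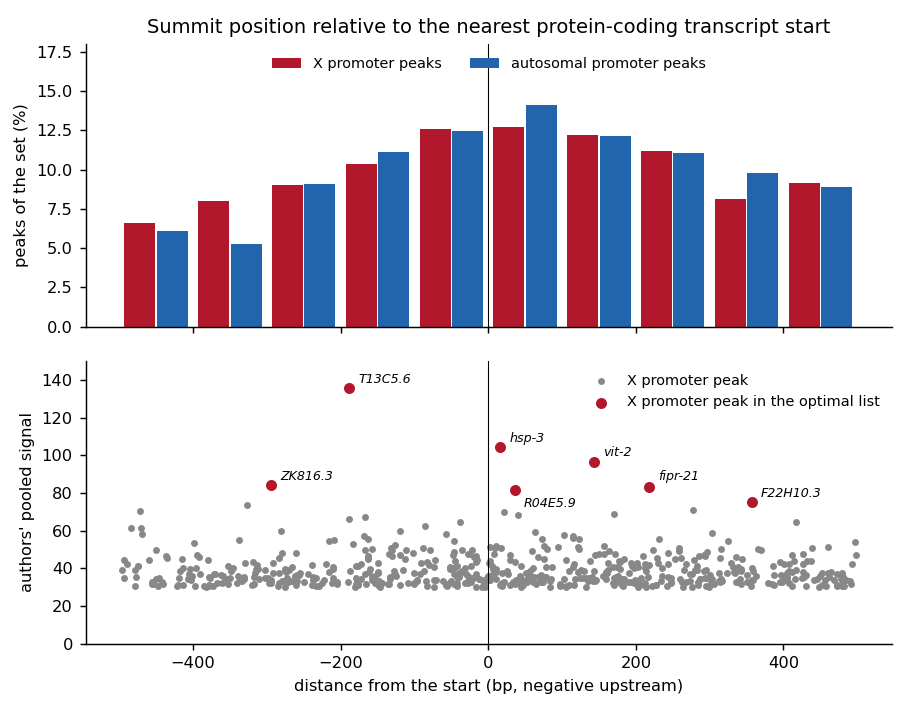
Upper panel, percent of X promoter peaks and of autosomal promoter peaks whose summit lay in each bin of 100 bp from the nearest protein-coding transcript start (horizontal axis, bp, negative upstream). Lower panel, pooled signal of each of the 589 X promoter peaks by the same distance, with the 7 peaks of the optimal list in red and named; they lie on both sides of the start, from -294 to 357 bp.

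By annotation, 173 summits lay in coding exons (29.4%), 60 in untranslated exons (10.2%), 24 in non-coding RNA genes (4.07%), 148 in introns (25.1%) and 184 in intergenic sequence (31.2%). Autosomal promoter peaks had 33.1% in coding exons, 11.5% in untranslated exons, 2.05% in non-coding RNA genes (1.50 to 2.73%), 25.3% in introns and 28.0% in intergenic sequence. Outside promoters, the share in non-coding RNA genes was 4.24% (3.37 to 5.26%) on X and 2.45% (2.02 to 2.96%) on autosomes. The 24 peaks in RNA genes lay in 28 genes of the general ncRNA class, with lengths from 57 to 355 bp and a median of 145 bp. Their median pooled signal was 41.0, against 36.3 over all X promoter peaks. Of the 24, 7 recurred in both replicates, near the 25.98% of all X promoter peaks, and 2 were optimal, against 7 of 589. Besides T13C5.6 and ZK816.3, the highest of them was at epn-1, in T04C10.8 (139 bp), with signals of 61.4 pooled, 37.8 in replicate 2 and 21.7 in replicate 3. Within 200 bp of any gene of this class stood 60 X promoter peaks, 10.2% (7.86 to 12.9%), against 4.10% (3.31 to 5.02%) of autosomal promoter peaks and 9.51% (8.21 to 10.9%) of X peaks outside promoters. None lay within 200 bp of a microRNA or lincRNA gene, which allows a share of up to 0.624%. Over all nuclear peaks the shares were 0.323% for microRNA and 0.344% for lincRNA genes, both under that limit. Starts on both strands lay within 500 bp of 11 X promoter peaks, 1.87% (0.936 to 3.32%), against 5.93% (4.97 to 6.996%) of autosomal promoter peaks.

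The strongest X promoter peaks were rich in G and C. The 25 highest had a median of 55.4% GC within 50 bp of the summit, with a range of 20.8 to 64.4%, and 19 of the 25 were above 50%. Windows centred 500 bp to either side of the same summits had a median of 36.1%. The 25 highest autosomal promoter peaks had a median of 47.5%, with 10 above 50%, and the 25 highest X peaks outside promoters 43.6%, with 6 above 50%. The same order of X and autosomal promoter peaks appeared in the list of each replicate. In replicate 2 the 25 highest had medians of 53.5% on X and 47.5% on autosomes, and in replicate 3 medians of 51.5% on X and 41.6% on autosomes. GC was highest where the signal was highest. The 4 bins of X promoter peaks from the highest signal to the lowest had medians of 47.5%, 39.6%, 39.6% and 39.1%, and rho between signal and GC over all 589 was 0.183, against 0.133 over autosomal promoter peaks, 0.179 over X peaks outside promoters and 0.173 over autosomal peaks outside promoters. Among the 50 highest of the pooled list the medians were 54.5% for X promoter peaks and 43.6% for X peaks outside promoters, but in replicate 3 they were 45.5% and 47.0%, the other way round. Over all members the mean was 40.5% ± 11.3 (SD, n = 589 peaks), against 39.6% ± 11.3 over the 2194 autosomal promoter peaks, 38.7% ± 11.4 over the 1840 X peaks outside promoters, 37.8% at all X protein-coding starts and 35.6% in the flanks. The mean was 40.4% ± 11.4 over the 4401 autosomal peaks outside promoters and 40.2% over all nuclear peaks. As a whole, X promoter peaks were thus near both of these sets.

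The annotation class moved with the composition. Over all X promoter peaks the median GC was 45.5% in coding exons, 43.1% in untranslated exons, 51.0% in RNA genes, 32.7% in introns and 35.6% in intergenic sequence. Coding exons had the same median of 45.5% among autosomal promoter peaks, whose untranslated exons had 34.7%, close to the 35.6% of their intergenic sequence. Among the 25 highest, 6 lay in coding exons, 5 in untranslated exons, 3 in RNA genes, 2 in introns and 9 in intergenic sequence. The 9 intergenic ones had a median of 52.5%, and 6 of them were above 50%, including those of bet-2, ceh-39 and act-4 at 60.4%, 60.4% and 61.4%. The intergenic exceptions were F22H10.3 at 24.8%, nrde-3 at 30.7% and T04G9.4 at 48.5%. What part the GC content of fragments had in the signal was not tested.

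**Figure D4:**
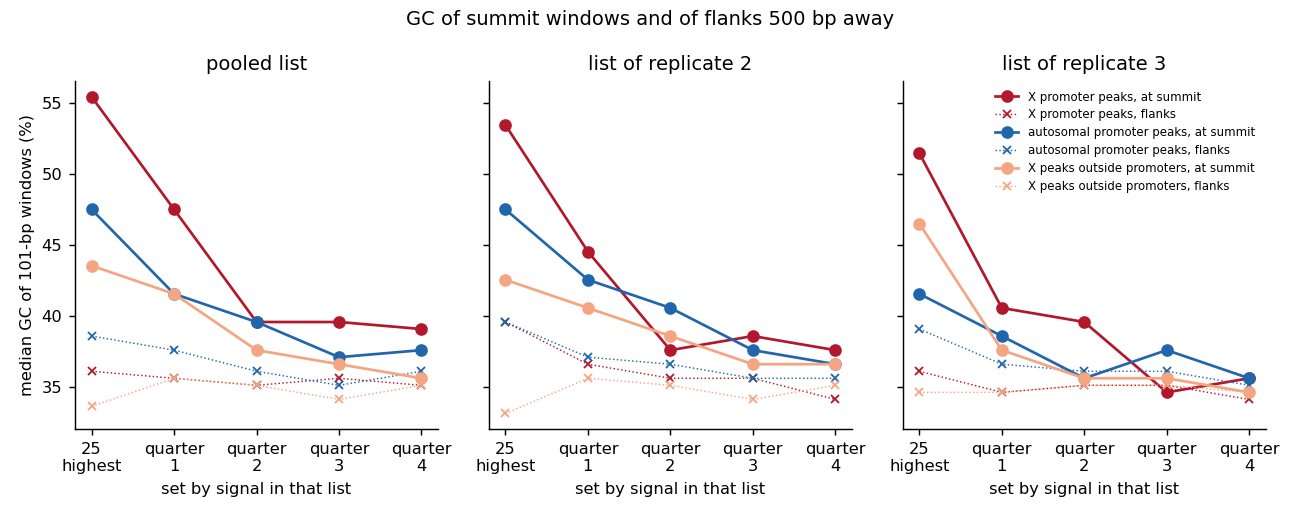
Median GC (vertical axis, percent) within 50 bp of the summits (solid lines) and of windows 500 bp to either side (dotted lines), for the 25 highest peaks and for each of 4 bins by signal, in the pooled list and in each replicate list. The 25 highest X promoter peaks stood at 55.4%, 53.5% and 51.5% in the 3 lists, above the other sets, while the flanks stayed between 33.2% and 39.6%.

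The core of the X recruitment motif was rare in X promoter peaks. GCGCAGGG, searched on both strands, lay within 50 bp of the summit in 1 of 589, 0.170% (0.00430 to 0.942%), the R04E5.9 peak. It was in 10 of 1840 X peaks outside promoters, 0.543% (0.261 to 0.997%), and in 0 of 2194 autosomal promoter peaks, which allows up to 0.168%. Of those 10, 8 were in the optimal list, with pooled signals of the 10 from 36.6 to 179.7. At all X protein-coding starts the core was found in 3 of 4148 windows, 0.0723%. With 1 mismatch allowed it was in 3.40% (2.09 to 5.20%) of X promoter peaks, 2.73% (2.09 to 3.51%) of autosomal promoter peaks and 3.59% (2.78 to 4.54%) of X peaks outside promoters, against 1.59% (1.23 to 2.02%) of X starts. The shorter GCGCAGG, which every GCGCAGGG contains, was in 0.679% (0.185 to 1.73%) of X promoter peaks and 0.313% of X starts. A missing match says only that these letters were not in the window.

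Core sequences known from nuclear receptors stood at the summits at about the frequency of the flanks, with overlapping intervals. AGGTCA was in 2.72% of X promoter peaks, against 3.40% of flanks and 2.82% of X starts. GGGTCA was in 2.04%, against 1.61% of flanks and 1.64% of X starts, and AGTTCA in 5.26%, against 7.22% of flanks and 6.99% of X starts. GAGAGA was in 9.34% (7.11 to 11.98%) of X promoter peaks, against 7.25% (6.20 to 8.41%) of autosomal promoter peaks, 5.49% (4.49 to 6.63%) of X peaks outside promoters, 6.20% of flanks and 6.94% of X starts. TTTCAG, the splice acceptor of worm introns and of trans-splicing, was in 15.6% (12.8 to 18.8%) of X promoter peaks, against 18.6% of autosomal promoter peaks and 18.1% of flanks. It was in 35.8% of X starts, but those windows are centred on the starts, whereas summits lay up to 500 bp from them. The 2 values are thus not for like positions. Other words stood as follows in X promoter peaks and X starts. TGATAA was in 8.66% and 9.91%, TATAAA in 12.4% and 13.3%, CACGTG in 1.19% and 1.01%, GGCGGG in 3.06% and 2.31%, and TTTTTTTT in 8.32% and 10.03%. In the same order, the flanks had 10.1%, 11.4%, 1.36%, 1.10% and 12.1%. Autosomal promoter peaks had 7.75%, 12.8%, 2.55%, 3.69% and 8.57%.

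The B box of RNA polymerase III genes marked few X promoter peaks. GGTTCGA was in 1.19% (0.479 to 2.43%) of them, against 0.775% of autosomal promoter peaks, 0.723% of X starts and 18.8% of peaks near small RNA genes. The longer form GGTTCNANNCC, which overlaps it and was searched after the sequences were seen, was in 4 of 589, 0.679% (0.185 to 1.73%), against 4 of 2194 autosomal promoter peaks, 0.182% (0.0497 to 0.466%), 6 of 1840 X peaks outside promoters, 0.326% (0.120 to 0.708%), 0.432% (0.260 to 0.673%) of autosomal peaks outside promoters, 0.121% of X starts, 0 of 1178 flanks and 24.2% of peaks near small RNA genes. The 4 were T13C5.6 and ZK816.3, shown above, and peaks of scd-1 and E01G6.1 with pooled signals of 37.4 and 31.9, each with a summit within 100 bp in 1 replicate list. Words of 8 bases that were more frequent at summits than in flanks were chosen by that difference and are given as a description. The first was AAAATAAA, in 7.13% of summit windows, against 7.20% of autosomal promoter peaks, 5.62% of X starts and 4.67% of flanks, and none of the 25 highest held it. AGAGAGTG, which can overlap GAGAGA, was in 12 windows, 2.04%, against 0.912% of autosomal promoter peaks and 0.255% of flanks, and in 3 of the 25 highest, and CGCGCCGC was in 10, 1.70%, against 0.456% of autosomal promoter peaks and 0.0849% of flanks, and in 2 of the 25 highest.

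The 589 peaks named 523 of 2731 X protein-coding genes by the nearest start, 19.2% (17.7 to 20.7%), against 1982 of 17242 autosomal genes, 11.5%. On X 463 genes had 1 peak and 60 had several. The most were 4 at fln-2, a filamin of the actin cytoskeleton, and 3 each at act-4, kin-20, rgs-2 and dgk-2. Genes with more annotated starts had a peak more often. Of X genes with 1 start 16.1% had one, and of those with 4 or more 40.7%, against 9.12% and 29.7% on autosomes. The number of peaks moved little along X, with 144, 149, 168 and 128 in 4 stretches of equal length, that held 23.9%, 26.8%, 26.1% and 23.1% of the X genes. The densest stretch of 20 kb held 7 peaks over 15957 bp, from F53A9.3 through kreg-1 to tnt-2, a troponin T gene, with signals from 32.0 to 53.5.

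Nuclear hormone receptor genes, the family of the tagged protein, had a promoter peak in 11 of 23 X genes, 47.8% (26.8 to 69.4%), against 34 of 246 autosomal ones, 13.8%. The background is 19.2% of all X genes. Their median pooled signal was 35.3, against 36.3 over all X promoter peaks. Of the 11 peaks, 2 recurred in both replicates, against 25.98% of all X promoter peaks, and 0 were in the optimal list, against 1.19%. In signal and recurrence these few peaks were near the whole set. The highest was at nhr-25, the NR5A receptor of moulting and epidermal development, with signals of 55.7 pooled and 29.98 in replicate 2, and no summit within 100 bp in replicate 3. The next, at nhr-35, had 46.6 pooled and no summit within 100 bp in either replicate list. Its nearest summits lay 114 bp away in replicate 2 and 233 bp away in replicate 3. At nhr-32 the signals were 43.3 pooled, 24.9 in replicate 2 and 17.5 in replicate 3, and at nhr-17 42.5 pooled and 33.6 in replicate 3 only. The peaks named for nhr-14 and nhr-137 had their summits inside the non-coding RNA genes T01B10.13 and F38B6.18. The nhr-14 peak, with 42.4 pooled, 20.7 in replicate 2 and 22.5 in replicate 3, was 1 of the 2 that recurred. The X receptor genes had a mean of 1.87 annotated starts, against 1.68 for the autosomal ones and 1.52 for all X genes. What part this had in the share was not tested.

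For this and the following lists, the background was 19.2% of all X genes and 11.5% of all autosomal genes. Neuropeptide and insulin-like genes had a peak in 11 of 36 X genes, 30.6% (16.3 to 48.1%), against 14.95% of the autosomal ones. The highest were flp-7, an FMRFamide-like peptide, with 45.6 pooled and 20.8 in each replicate, and ins-39, an insulin-like peptide, with 42.1 pooled and 21.2 in replicate 3. In replicate 2 the summit nearest to the ins-39 peak lay 187 bp away, past the 100 bp limit. These 2 genes were followed by flp-19 (41.0 pooled, in both replicates) and nlp-101 (39.8 pooled, in replicate 3 only). Ion channel and ligand-gated receptor genes had one in 13 of 48, 27.1% (15.3 to 41.8%), against 9.29% of the autosomal ones. Their highest were glr-8, a glutamate receptor subunit, with 41.2 pooled, del-5, a sodium channel subunit, with 39.7, lgc-4 with 39.03 and twk-22, a potassium channel, with 37.6. Of these 4, del-5 alone had a summit within 100 bp in both replicates. The nearest replicate 2 summits lay 156 bp away at lgc-4, 220 bp at twk-22 and 5131 bp at glr-8. Chemoreceptor genes had a peak in 2 of 33, srd-42 (39.8 pooled) and srd-46 (35.3), 6.06% (0.743 to 20.2%), against 4.99% of the autosomal ones.

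Homeobox genes had a peak in 5 of 26, 19.2% (6.55 to 39.4%), against 19.1% of the autosomal ones. They included ceh-39 with 66.0 pooled, 37.4 in replicate 2 and 25.6 in replicate 3, vab-3 with 58.5, ceh-54 with 43.1 and lim-4 with 33.0 pooled. Collagen and cuticle genes had one in 5 of 30, 16.7% (5.64 to 34.7%), against 15.2%. The col-181 peak had 64.7 pooled, 28.6 in replicate 2 and 31.5 in replicate 3, and col-178, col-44 and col-185 had 42.9, 42.4 and 41.1 pooled. Muscle genes had one in 3 of 8, 37.5% (8.52 to 75.5%), against 6 of 20 autosomal ones, which on X were act-4, tnt-2 and tnt-3, the troponin T genes, with 64.9, 53.5 and 42.9 pooled. Translation genes had one in 2 of 3, 66.7% (9.43 to 99.2%), against 22.6% of the autosomal ones, namely rpl-25.1 with 69.0 pooled and eef-1A.2, an elongation factor, with 55.0, and both recurred in both replicates. Vitellogenin genes had one in 2 of 5, 40% (5.27 to 85.3%), against 1 of 1 on autosomes, namely vit-2 as above and vit-1 with 50.3 pooled and 37.1 in replicate 2 only.

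The remaining lists were small. Detoxification genes had a peak in 3 of 15, 20% (4.33 to 48.1%), against 8.38% of the autosomal ones, namely the cytochrome P450 genes cyp-13B2, cyp-43A1 and cyp-14A1 with 41.0, 40.5 and 31.6 pooled. C-type lectin genes had one in 1 of 3, 33.3% (0.840 to 90.6%), against 8.86% of the autosomal ones, namely clec-266, with 40.7 pooled. Its nearest summits lay 187 bp away in replicate 2 and 103 bp away in replicate 3, so neither was within 100 bp. Genes of sex determination and dosage compensation had one in 2 of 6, 33.3% (4.33 to 77.7%), which were ceh-39 and sdc-2, against 0 of 11 on autosomes. The sdc-2 protein brings to X the dosage compensation complex. Its gene had a peak 378 bp upstream with 30.9 pooled, 28.0 in replicate 2 and no summit within 100 bp in replicate 3. That peak ranked 546 of the 589 by pooled signal, near the lowest value of 30.1. Its deposited −log10 q-value was 0.0237. Of the 12 lists, the interval of the nuclear hormone receptors lay wholly above the 19.2% of all X genes, and the intervals of the other 11 spanned it. The intervals are not corrected for the number of lists, which were chosen with earlier results of these data known. No nuclear hormone receptor peak on X had a deposited q-value under 0.05.

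**Figure D5:**
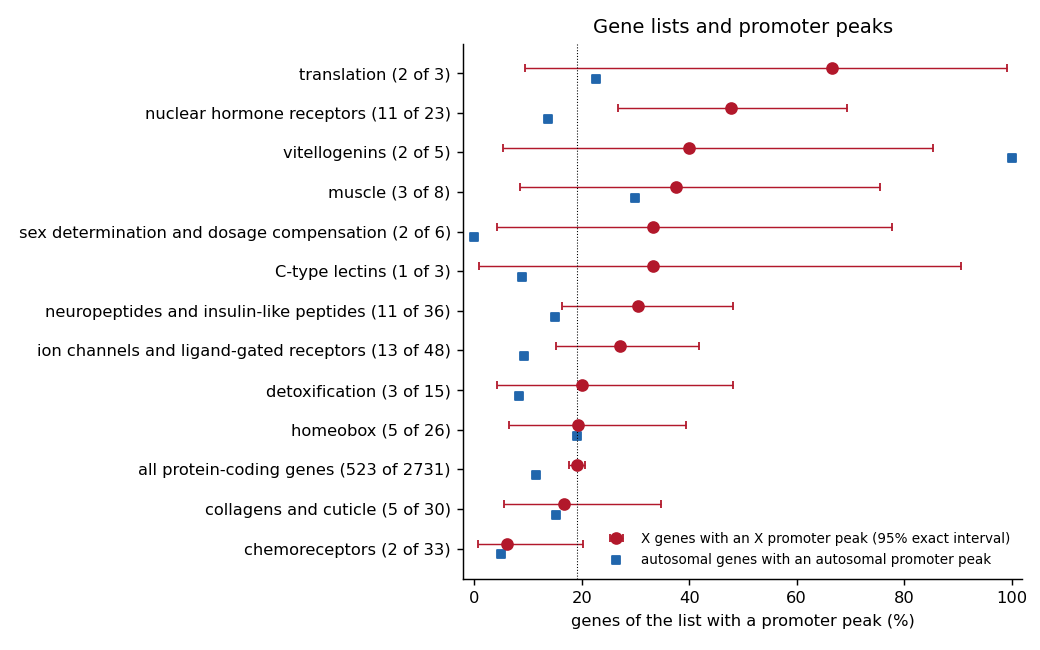
Percent of the genes of each list (horizontal axis) that were the nearest gene of an X promoter peak, for X genes (red, exact 95% intervals, counts in the labels), and of an autosomal promoter peak, for autosomal genes (blue squares). The dotted line is the 19.2% of all X protein-coding genes; nuclear hormone receptors stood at 47.8% on X and 13.8% on autosomes.

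The 3 peaks just inside 500 bp were at mbr-1 (498 bp, signal 47.0), cytb-5.1 (497 bp, 54.2) and pgp-5 (496 bp, 38.9), and the 3 just outside were at cdd-1 (501 bp, 38.1), blos-8 (502 bp, 36.7) and unc-18 (503 bp, 43.4). Of the peaks that met the start rule, those kept nearest to a small RNA gene were at aat-3 (201 bp, signal 47.3), col-181 (584 bp, 64.7) and nhr-255 (680 bp, 30.3). The nearest left out were at K08B5.1 (160 bp, 53.3), stn-2 (96 bp, 62.9) and F19C6.4 (71 bp, 96.8). The 24 X promoter peaks that this distance left out were higher than those kept, with a median signal of 60.8 against 36.3, and 7 of them were in the optimal list, 29.2% (12.6 to 51.1%), against 1.19%.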

How the data were processed

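ChIP-seq of NHR-179-eGFP in 2 biological replicates was analysed from the peak lists that the authors deposited on build ce11: a list for each replicate, a pooled list, and an optimal list chosen by irreproducible discovery rate. Per the deposited file descriptions, the first 3 hold peaks and background called against a control alignment, which was not analysed here. No aligner, peak caller or version is given in the sources used here. Each deposited peak carries a signal of unstated scaling. It also carries, as deposited, the −log10 q-value. The signal is the authors' and was used only to describe and rank peaks within a list. Lists on ce10 were not used.

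Summits (start plus offset, counted from 1) were placed against Ensembl release 115 gene models and the RefSeq genome of WBcel235, with RefSeq symbols where Ensembl gave none. A peak was named by its nearest protein-coding transcript start. Windows reaching 50 bp to either side, flanks at 500 bp, 13 words and 12 gene lists by symbol were counted on both strands or chromosomes, and summits within 100 bp counted as shared. Named were the 25 members of highest signal, up to 4 per gene list and 3 on either side of each limit. The B box form and 2 alternatives were chosen after the data were seen, and the members and lists were chosen with earlier results of these data known. Python 3.11.15, pandas 2.3.3, numpy 2.4.6 and scipy 1.17.1 were used, and the member rule and word search were checked on simulated peaks. No test was made, since 1 group of 2 replicates allows none.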

Additional observations from a re-analysis of the deposited data

How the results depend on the processing

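No paired analysis was possible because both replicates belong to 1 group. Of the recomputed values, 54 stayed within the error of the reported value and 17 moved out of it. The share of X genes with a peak was 11.4% with starts within 250 bp, 29.2% within 1000 bp and 16.0% with the 5′-most start of each gene, and 24.0 to 24.5% in the list of 1 replicate. The share in both replicates was 16.8% with summits within 50 bp, 35.8% within 200 bp and 43.8% for intervals overlapping by 1 bp. A single replicate list held 55.3 to 58.4% of the members. The share in the optimal list was 0.340% for its upper 50% and 3.40% for a list of the highest pooled peaks 2 times as long. GCGCAGGG was found in 3.40% with 1 mismatch. The lists of 1 replicate, each on its own scale, gave a median signal of 19.4 to 20.3, GCGCAGGG in 0 to 0.131% and a mean GC of 38.3 to 39.9%. Leaving out members with repeated words or in RNA genes, added after the data were seen, moved no value out of its interval. The distances, the single replicates and the wider list change by construction which peaks or genes are counted. Depth is unknown, so no limit from it can be given.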
